A study of Homo sapiens with 4 samples.

Results

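Genes of polyamine metabolism were examined in LNCaP cells, a human prostate cancer cell line that responds to androgen, after treatment with a KDM5 inhibitor. The 10 genes were taken by name for their place in the pathway, with earlier results of these data known, out of 60675 annotated genes, and all 10 passed the filter on low counts that left 17600 genes for testing. They comprise 4 enzymes of synthesis (ODC1, AMD1, SRM and SMS), 3 enzymes of catabolism (SAT1, SMOX and PAOX) and 3 regulators (OAZ1, OAZ2 and AZIN1). All 4 cultures received 1 nM R1881, a synthetic androgen, for 72 h in hormone-depleted medium. In 2 of them the androgen was given with vehicle (DMSO), and in the other 2 with 50 µM CPI-455, a small molecule that inhibits the KDM5 family of histone lysine demethylases. All cultures thus carried the androgen, only the inhibitor differed, and the values concern 1 cell line. The study's methods describe the libraries as biological replicates, and p-values measure the spread between these 2 cultures per group only.

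Polyamines are small positively charged molecules that bind nucleic acids and are needed for growth, and the prostate epithelium makes and secretes them in large amounts. Ornithine decarboxylase (ODC1) makes putrescine, and spermidine synthase (SRM) and spermine synthase (SMS) extend it with aminopropyl groups that come from S-adenosylmethionine through its decarboxylase (AMD1). Breakdown runs through the acetyltransferase SAT1 and the oxidase PAOX, or directly from spermine through the oxidase SMOX. Antizymes (OAZ1 and OAZ2) bind ODC1, send it to the proteasome and limit polyamine uptake, and the antizyme inhibitor AZIN1, a relative of ODC1 without its activity, binds the antizymes and frees ODC1. Both antizyme activity and the abundance of several of these enzymes are controlled after transcription, which mRNA counts do not show.

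The vehicle libraries held 19623553 and 20690819 counted fragments and the CPI-455 libraries 9522920 and 5401588 (replicates 1 and 2). A level of 3 counts corresponded to 0.137 to 0.142 normalized CPM (counts scaled to a common library total) under vehicle, against 0.337 and 0.595 under CPI-455. The composition of the libraries differed with treatment. The 13 protein genes of the mitochondrial genome took 1.84% and 1.41% of all counts under vehicle, against 0.0948% and 0.0791% under CPI-455, and MALAT1, a nuclear long non-coding RNA, took 0.114% and 0.0884% under vehicle, against 4.95% and 6.49% under CPI-455. With all genes of the mitochondrial genome and MALAT1 left out of the normalization, 2 members were called higher and 2 lower, as with them. The normalization already sets aside genes of extreme change, so this setting does not test the part of composition. The part of depth in the differences was not tested. KLK3, a marker of luminal prostate cells, had counts in every library, at 404 and 357 normalized CPM under vehicle, against 107 and 136 under CPI-455. The summed level of the 2 basal markers (KRT5 and TP63) was 0 to 1.19 normalized CPM over the 4 libraries, that of the leukocyte marker PTPRC 0 to 0.900, and that of the endothelial marker PECAM1 0 to 0.189, with KRT5 at 0 in every library. The 3 stromal markers summed to 5.02 and 4.03 normalized CPM under vehicle, against 10.2 and 10.7 under CPI-455, with COL1A1 called higher (log2 fold change 1.00, FDR = 0.0195) and DCN at 0 in 3 of the 4 libraries. Part of the sum in CPI-455 replicate 2 came from COL1A2, with 15 counts there and no more than 1 in any other library. The cultures were of 1 cell line, and the source of these counts was not tested.

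Fold changes are given as CPI-455 over vehicle on the log2 scale, from edgeR's quasi-likelihood test fitted across all 17600 genes. A gene was taken to have changed at an FDR (Benjamini-Hochberg, over all genes tested) below 0.05, and to be called when it also changed at least 2-fold, the thresholds of the study's pathway analysis. By the first rule 62.6% of all tested genes changed, 29.8% higher and 32.8% lower with CPI-455. By the second 42.4% were called, 21.0% higher and 21.3% lower. Of the 10 polyamine genes, 8 changed (2 higher and 6 lower) and 4 were called (2 higher and 2 lower), a share close to that of all genes. The groups did not overlap in normalized CPM for 8 of the 10, against 81.9% of all tested genes. Their median log2 fold change was -0.47. That of all tested genes was -0.04, and that of the 13813 protein-coding genes tested, to which all members belong, was -0.21. Changes are relative to the other RNA of each library, so that less RNA per cell or fewer cells cannot be told apart.

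The 2 genes that rose were SAT1 and OAZ1, and the genes of the first steps of synthesis were lower. The start regions of 4 members are shown, those of the 2 genes that rose and of 2 genes of synthesis that fell. The windows come from RefSeq on GRCh38.p14 (300 bases around the annotated start, 5′ to 3′ on the gene's strand). A window was found for 7 of the 10 members, and SMOX, PAOX and AZIN1 had none in the table used here. Capitals mark matches, on either strand, to the E-box CACGTG (the binding motif of MYC and MAX), the CCAAT box CCAAT, the GC box GGGCGG and the TATA box TATAAA, whose matches can adjoin one another. The table holds 2 windows for ODC1, and the other held 6 GC boxes and no E-box.
ODC1 (chr2:10447963-10448262, reverse strand): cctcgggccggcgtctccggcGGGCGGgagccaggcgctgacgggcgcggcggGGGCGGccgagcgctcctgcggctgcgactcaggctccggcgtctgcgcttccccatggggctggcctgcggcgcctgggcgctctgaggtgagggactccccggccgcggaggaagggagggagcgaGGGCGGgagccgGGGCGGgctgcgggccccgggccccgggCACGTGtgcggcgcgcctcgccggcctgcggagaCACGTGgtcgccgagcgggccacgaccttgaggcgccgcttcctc
SRM (chr1:11059969-11060268, reverse strand): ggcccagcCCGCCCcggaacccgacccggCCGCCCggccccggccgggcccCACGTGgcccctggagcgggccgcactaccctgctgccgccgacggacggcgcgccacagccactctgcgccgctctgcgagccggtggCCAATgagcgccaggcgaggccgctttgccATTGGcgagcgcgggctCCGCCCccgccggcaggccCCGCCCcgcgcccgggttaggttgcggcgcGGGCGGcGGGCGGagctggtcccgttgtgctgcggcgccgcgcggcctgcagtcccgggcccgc
SAT1 (chrX:23782923-23783222, forward strand): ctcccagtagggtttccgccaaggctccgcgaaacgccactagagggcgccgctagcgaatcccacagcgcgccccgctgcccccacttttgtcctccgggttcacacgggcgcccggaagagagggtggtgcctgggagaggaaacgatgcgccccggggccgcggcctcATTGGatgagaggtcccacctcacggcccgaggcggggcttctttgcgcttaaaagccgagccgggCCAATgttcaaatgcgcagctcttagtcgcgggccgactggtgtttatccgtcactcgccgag
OAZ1 (chr19:2269236-2269535, forward strand): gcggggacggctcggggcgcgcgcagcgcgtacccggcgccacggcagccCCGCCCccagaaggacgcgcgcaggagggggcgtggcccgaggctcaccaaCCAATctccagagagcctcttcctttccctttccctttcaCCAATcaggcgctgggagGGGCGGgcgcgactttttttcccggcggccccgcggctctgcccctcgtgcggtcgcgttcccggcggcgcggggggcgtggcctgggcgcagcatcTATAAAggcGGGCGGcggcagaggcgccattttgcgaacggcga
The ODC1 window shown held 2 E-boxes and the SRM window 1, and no other window of the 7 members held one. This includes the windows of AMD1, a gene of synthesis that also fell and is not shown. The 2 synthesis windows shown are thus the only member windows with an E-box, and they do not stand for the genes that fell. Of all 35116 windows in the table, 7.26% held an E-box, 34.6% a CCAAT box, 45.0% a GC box and 11.5% a TATA box. SAT1 and OAZ1 each held 2 CCAAT boxes, as did SRM. The GC box was matched 3 times in OAZ1, 4 times in the ODC1 window shown and 6 times in SRM, and it was not found in these 300 bases of SAT1. A match of letters describes the window and does not show that a factor was bound.

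Among the enzymes of synthesis, 3 of 4 fell and none was called. ODC1 (ENSG00000115758) occupies chromosome 2 from 10439968 to 10448504 on the reverse strand (coordinates are GRCh38 throughout), and its 13 exon blocks sum to 2968 bases. It had 340 and 341 normalized CPM under vehicle, against 194 and 155 under CPI-455. The CPI-455 cultures were both below the vehicle cultures and differed more from each other. Expression of ODC1 fell 1.94-fold (log2 fold change -0.96, standard error 0.13, FDR = 0.000162), just under the 2-fold rule. AMD1 (ENSG00000123505), on chromosome 6 from 110814621 to 110895713, had 331 and 357 normalized CPM under vehicle, against 222 and 231 under CPI-455 (log2 fold change -0.61, standard error 0.11, FDR = 0.000976). AMD1 has a long (7222 bases) exon sequence of low GC content (39.8%), and its difference was gone, at a log2 fold change of -0.021 (FDR = 0.879), once each library was corrected for how counts varied with exon length and base composition.

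SRM (ENSG00000116649), on chromosome 1 from 11054584 to 11060024, transfers an aminopropyl group to putrescine. It had 120 and 144 normalized CPM under vehicle, against 108 and 79.7 under CPI-455, and fell by 0.49 on the log2 scale (standard error 0.16, FDR = 0.0238). The groups did not overlap, but the step from the lowest vehicle to the highest CPI-455 culture was small, and without vehicle replicate 2 the difference no longer passed (FDR = 0.161). Nor did it with upper-quartile normalization (FDR = 0.109), whereas the difference was larger without CPI-455 replicate 1 (-0.75) and with the length and GC trend removed (-0.88, FDR = 0.000262). SMS (ENSG00000102172), on the X chromosome from 21940573 to 21994835, makes spermine from spermidine. It had 107 and 117 normalized CPM under vehicle, against 113 and 132 under CPI-455, and the groups overlapped. Its log2 fold change of 0.13 had a 95% interval of -0.15 to 0.41 (FDR = 0.399), which leaves out a 2-fold change in either direction. The summed counts per kilobase of the 4 synthesis enzymes were made up of ODC1 for 41.9% and 39.1% under vehicle, against 31.9% and 27.9% under CPI-455, and of SMS for 18.1% and 18.3% under vehicle, against 25.5% and 32.6% under CPI-455.

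**Figure D1:**
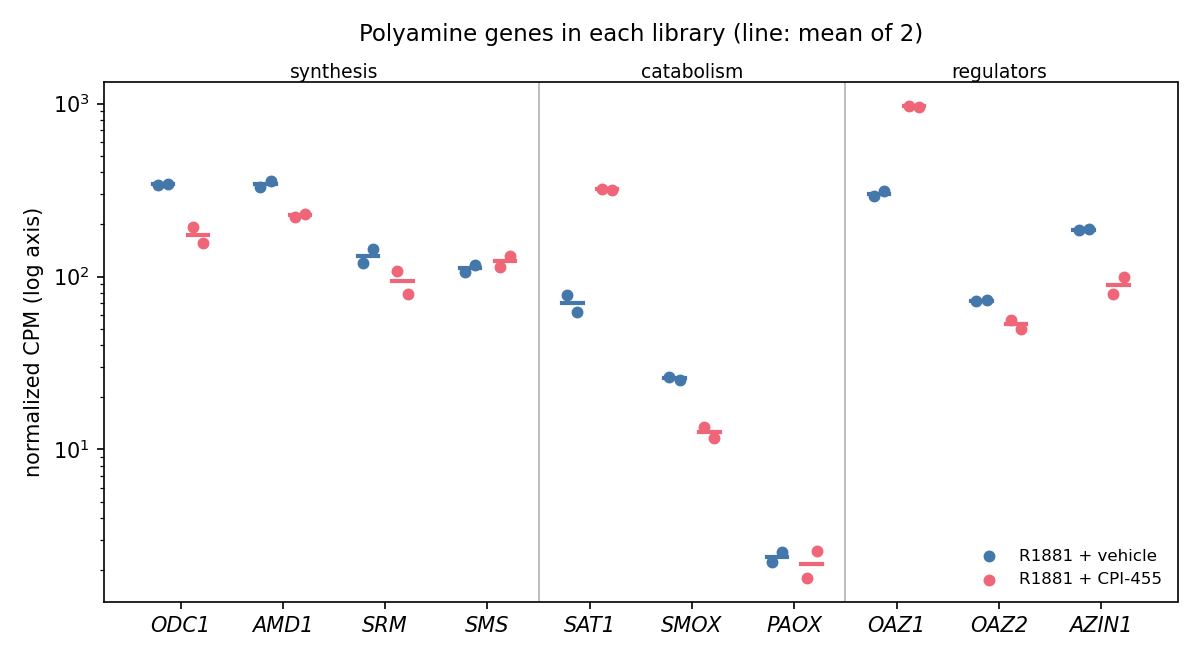
Normalized CPM (log axis) of the 10 polyamine genes in each of the 4 libraries, where points are cultures and lines the means of 2. The CPI-455 points of SAT1 (318 and 321) and OAZ1 (955 and 971) lie far above the vehicle points, those of ODC1, AMD1, SMOX and AZIN1 lie below them, and those of SMS and PAOX overlap them.

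The catabolic enzymes did not move together. SAT1 (ENSG00000130066), on the forward strand of the X chromosome from 23783173 to 23786226, adds acetyl groups to spermidine and spermine, the step that commits them to breakdown or export. It had 78.7 and 62.2 normalized CPM under vehicle, against 321 and 318 under CPI-455. Both CPI-455 cultures were thus above both vehicle cultures, by far more than either pair differed. SAT1 rose 4.53-fold (log2 fold change 2.18, standard error 0.14, FDR = 2.07e-06) and stood at the percentile 95.8 of the 13813 protein-coding genes tested when these are ordered by fold change. Raw SAT1 counts were 1662 and 1359 under vehicle, against 2852 and 1603 under CPI-455, so that 1 CPI-455 library was above both vehicle libraries and the other between them, although both were of less depth.

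SMOX (ENSG00000088826), on chromosome 20 from 4120980 to 4187747, oxidizes spermine to spermidine with release of hydrogen peroxide. It had 26.3 and 25.3 normalized CPM under vehicle, against 13.5 and 11.7 under CPI-455, and fell by 1.02 on the log2 scale (standard error 0.19, FDR = 0.00143), opposite to SAT1. PAOX (ENSG00000148832), the peroxisomal oxidase of acetylated polyamines on chromosome 10 from 133379234 to 133391694, was near the lower end of what the libraries measured. It had 47 and 56 counts under vehicle, against 16 and 13 under CPI-455, which is 2.23 and 2.56 normalized CPM against 1.80 and 2.58. The log2 fold change of PAOX was -0.16 with a 95% interval of -1.27 to 0.95 (FDR = 0.793), which does not leave out a 2-fold fall. Of the summed counts per kilobase of the 3 catabolic enzymes, SAT1 supplied 76.1% and 71.9% under vehicle, against 96.0% and 96.1% under CPI-455, and SMOX 21.6% and 24.8% under vehicle but no more than 3.42% in either CPI-455 culture.

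Of the regulators, the antizyme OAZ1 rose while OAZ2 and the antizyme inhibitor AZIN1 fell. OAZ1 (ENSG00000104904), on chromosome 19 from 2269509 to 2273490, had 292 and 310 normalized CPM under vehicle, against 971 and 955 under CPI-455. The replicates of each group were close, and OAZ1 rose 3.19-fold (log2 fold change 1.68, standard error 0.10, FDR = 1.98e-06), at percentile 92.2 of the protein-coding genes. OAZ2 (ENSG00000180304), a second antizyme on chromosome 15 from 64687573 to 64703281, had 71.8 and 72.8 normalized CPM under vehicle, against 55.9 and 50.0 under CPI-455 (log2 fold change -0.45, standard error 0.13, FDR = 0.0150). This difference did not pass with either vehicle library left out, although its size was kept (-0.48, FDR = 0.119 without replicate 1 and -0.46, FDR = 0.141 without replicate 2), with upper-quartile normalization (FDR = 0.0967), and with the length and GC trend removed, where it was -0.054. AZIN1 (ENSG00000155096), on chromosome 8 from 102826357 to 102893864, had 186 and 188 normalized CPM under vehicle, against 79.3 and 98.7 under CPI-455. It fell 2.11-fold (log2 fold change -1.08, standard error 0.13, FDR = 9.57e-05), and with the length and GC trend removed the fall was smaller at -0.54 (FDR = 0.00465).

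**Figure D2:**
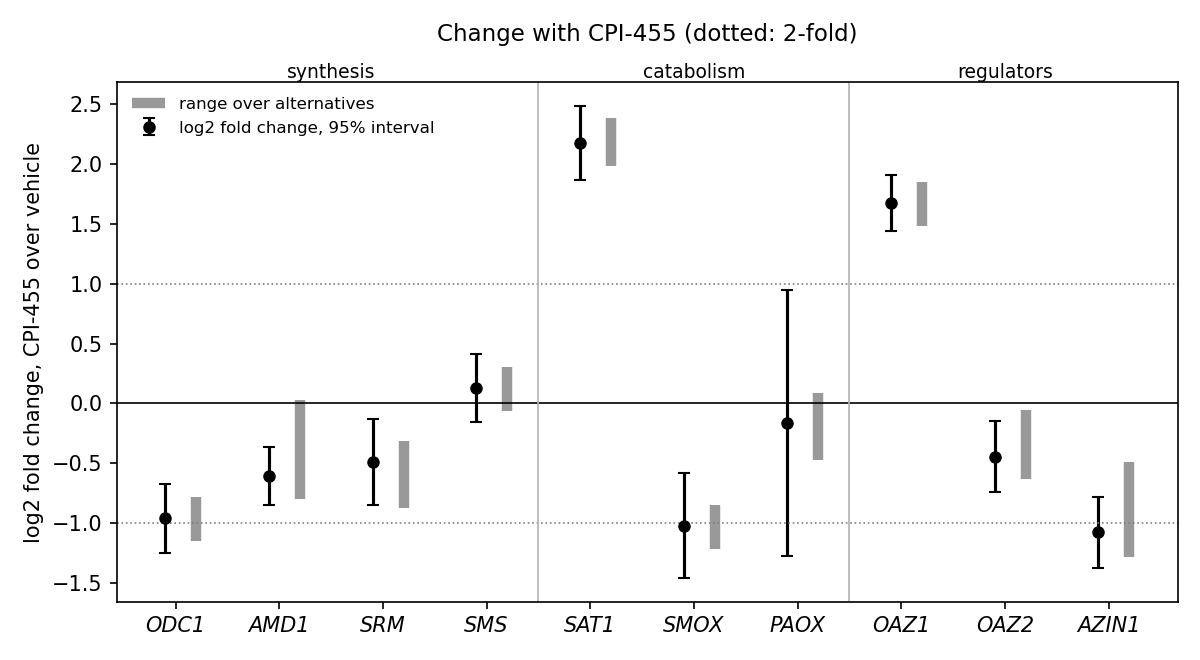
Log2 fold change of each polyamine gene, CPI-455 over vehicle (points, with 95% intervals from edgeR), beside the range over all alternative settings (grey bars), with dotted lines at 2-fold. SAT1 (2.18) and OAZ1 (1.68) stay above the upper dotted line in every setting run, whereas ODC1 (-0.96), SMOX (-1.02) and AZIN1 (-1.08) straddle the lower one, and AMD1 reaches 0.

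SAT1 and OAZ1 were called in each of the 16 other settings, with log2 fold changes of 1.99 to 2.38 and of 1.48 to 1.85, and both also passed edgeR's glmTreat, which asks whether a change exceeds 2-fold. None of the genes that fell passed that test, and the number called lower was 0 to 3 over the settings, with ODC1, SMOX and AZIN1 on either side of 2-fold. Exons annotated for SAT1 and OAZ1 cover 81.8% and 86.3% of the gene from start to end, the largest shares of the 10 members, against 3.98% to 48.8% for the others. Little of either gene lies outside annotated exons, so their counts cannot tell spliced from unspliced RNA. The median share was 22.4% for the 2159 protein-coding genes called higher and 13.6% for the 3372 called lower. With the trend on exon length, GC content and this share removed, a setting added after the data were seen, SAT1 was at 2.20 and OAZ1 at 1.48. OAZ1 shared 236 of its 3436 exon bases with JSRP1 on the other strand, which had 5 to 30 counts per library, and AZIN1 shared 324 with MAILR on the other strand, which had 11 to 20. The 9 pseudogenes named after a member reached no more than 7 counts in any library, and fragments matching a gene and its copy equally were not counted.

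Scaled by exon length (normalized CPM per kilobase), the order of the genes changed with treatment. The length used is that of all annotated exons of a gene merged, not of the transcript present. For OAZ1 it is 3436 bases in 2 blocks, which cover 86.3% of the gene. The order of genes with similar counts, such as ODC1 and OAZ1 under vehicle, depends on these lengths. With vehicle ODC1 was the most abundant at 115 ± 0.285 (SD, n = 2), followed by OAZ1 at 87.7 ± 3.69, SRM at 69.7 ± 8.78, SMS at 51.7 ± 3.18, AMD1 at 47.7 ± 2.54, AZIN1 at 29.1 ± 0.112, SAT1 at 28.2 ± 4.66, OAZ2 at 9.43 ± 0.0906, SMOX at 8.77 ± 0.241 and PAOX at 1.05 ± 0.105. In this order AZIN1 and SAT1 overlapped, and all other neighbours were apart in both cultures. With CPI-455 OAZ1 was first at 280 ± 3.18 (SD, n = 2) and SAT1 second at 128 ± 0.811. ODC1 came next at 58.8 ± 9.20 and overlapped SMS at 56.7 ± 6.07, which overlapped SRM at 49.3 ± 10.4. AMD1, AZIN1, OAZ2, SMOX and PAOX followed in that order, from 31.3 ± 0.866 for AMD1 to 0.961 ± 0.242 for PAOX, without overlap between neighbours.

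The balance of catabolism and synthesis was compared as ratios of counts per kilobase within a library, which do not depend on the scaling between libraries. The summed catabolic enzymes amounted to 0.152 and 0.118 of the summed synthesis enzymes under vehicle, against 0.652 and 0.707 under CPI-455, a 5.09-fold difference. Since SAT1 made up most of the catabolic sum, this ratio follows SAT1, and the medians of the log2 fold changes, -0.55 for synthesis and -0.16 for catabolism, do not show it. The catabolism median is the value of PAOX, the member with the fewest counts. The ratio of SAT1 to ODC1 was 0.275 and 0.217 under vehicle, against 1.97 and 2.43 under CPI-455, so that SAT1 went from the lesser to the greater of the pair on this scale. Whether a ratio lies above or below 1 depends on the exon lengths used. The ratio of OAZ1 to ODC1 was 0.743 and 0.786 under vehicle, against 4.33 and 5.32 under CPI-455. AZIN1, which counters antizyme, stood at 0.341 and 0.323 of OAZ1 under vehicle, against 0.0437 and 0.0553 under CPI-455. The ratio of SMOX to SAT1 was 0.284 and 0.345 under vehicle, against 0.0357 and 0.0312 under CPI-455, and that of SMS to ODC1 0.432 and 0.470 against 0.802 and 1.17, 2 ratios added after the data were seen. The groups were apart in all 6 ratios, where 81.9% of all tested genes were apart singly in normalized CPM. Ratios of SAT1 or OAZ1 with ODC1, AZIN1 or SMOX join genes already apart in opposite directions. Such ratios had to be apart and add no separate evidence. Each ratio gave p = 0.333 in a two-sided exact permutation test over the 4 libraries, the smallest value that 2 against 2 can reach. Adjustment over the 6 left this value unchanged.

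**Figure D3:**
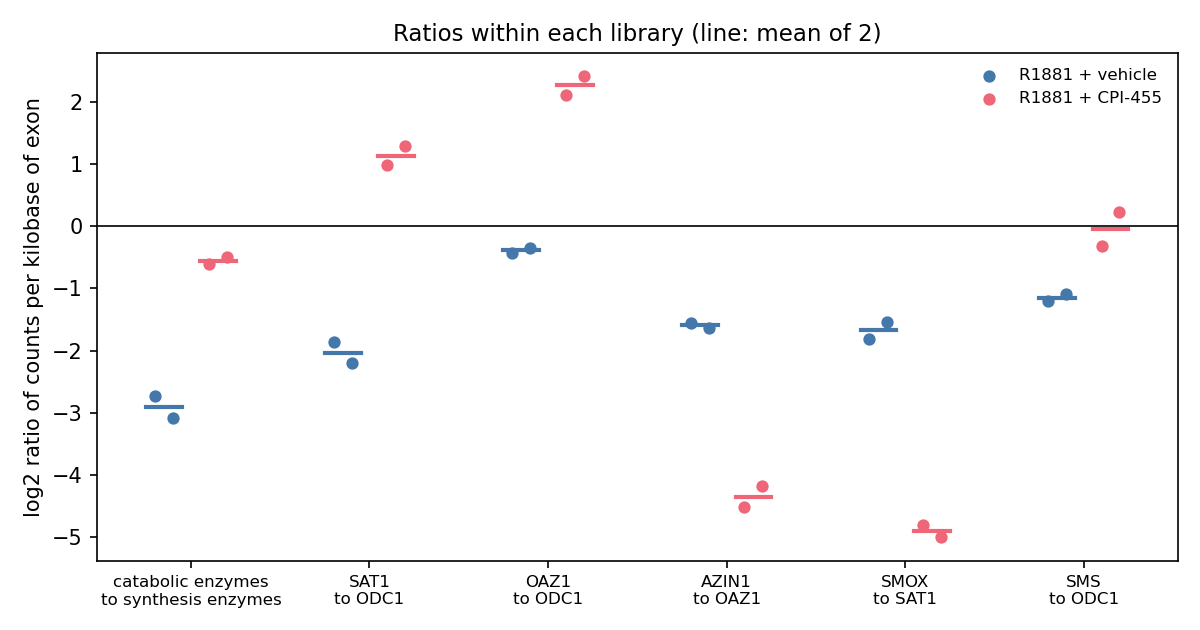
Log2 ratio of counts per kilobase of exon for 6 pairs within each library (points are the 4 libraries, lines the means of 2, 0 is an equal level per kilobase of annotated exon). The ratio of SAT1 to ODC1 crosses 0 between the groups, from 0.217 and 0.275 under vehicle up to 1.97 and 2.43 under CPI-455 (plain ratios), and the ratio of AZIN1 to OAZ1 drops from 0.341 and 0.323 to 0.0437 and 0.0553.

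A further 33 genes around the pathway were listed by function, of which 28 were tested. Of these 3 were called higher and 9 lower, that is 12 of 28 where 42.4% of all tested genes were called. Their median log2 fold change was -0.35, against -0.21 for all protein-coding genes tested. Among 9 genes that supply S-adenosylmethionine or salvage its by-product methylthioadenosine, MAT2A fell most. MAT2A, the S-adenosylmethionine synthetase of non-hepatic cells, had 852 and 861 normalized CPM under vehicle, against 58.1 and 72.8 under CPI-455, a 13.2-fold fall (log2 fold change -3.72, standard error 0.14, FDR = 3.72e-07). It shared 558 exon bases with GGCX on the other strand, itself at 1715 and 1677 counts under vehicle, against 289 and 118 under CPI-455. AHCY, which clears S-adenosylhomocysteine, fell from 196 and 193 to 92.4 and 83.5 normalized CPM (log2 fold change -1.14, FDR = 2.96e-05). APIP, an enzyme of the methionine salvage pathway, rose from 15.3 and 15.7 to 36.9 and 39.5 (log2 fold change 1.30, FDR = 0.000125). AHCY and APIP shared 139 and 259 exon bases with other genes.

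All 6 transport genes tested changed, 5 of them lower, where 62.6% of all tested genes changed and 32.8% were lower. SLC7A1, a transporter of arginine and ornithine, fell from 625 and 652 normalized CPM to 120 and 102 (log2 fold change -2.52, standard error 0.12, FDR = 7.52e-07), and its relative SLC7A2 fell by 1.36 on the log2 scale (FDR = 0.000198). ATP13A3 and ATP13A2, pumps that move polyamines out of endosomes and lysosomes into the cytosol, fell by 1.62 (FDR = 1.07e-05) and by 1.09 (FDR = 0.000257). With the length and GC trend removed SLC7A2 was at -0.79 and no longer called, and ATP13A3 was at -1.04. Of 5 tested genes of ornithine and arginine supply none was called, and ARG1 had 13 and 10 counts with vehicle and none with CPI-455 and was not tested. Spermidine also feeds hypusine, a modified lysine of the translation factor EIF5A. Of the 4 genes of that step DHPS, which starts the modification, rose from 40.1 and 36.5 normalized CPM to 159 and 140 (log2 fold change 1.97, FDR = 2.69e-06), whereas DOHH, which completes it, fell by 1.39 (FDR = 0.00190). EIF5A itself fell from 350 and 398 to 251 and 237 normalized CPM (log2 fold change -0.61, FDR = 0.00126), less than 2-fold. EIF5A2 fell by 1.01 (FDR = 0.00499), and this was not kept with the length and GC trend removed (FDR = 0.147).

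Among paralogs of the members, SAT2 rose from 65.6 and 59.8 to 243 and 217 normalized CPM (log2 fold change 1.88, FDR = 2.49e-06), and OAZ3 fell from 5.97 and 6.04 to 1.12 and 1.78 normalized CPM, with 10 and 9 counts under CPI-455 (log2 fold change -2.10, FDR = 0.00206). Merged, the exons annotated for SAT2 form 1 block over its whole length. As for SAT1 and OAZ1, its counts therefore cannot tell spliced from unspliced RNA. OAZ3 shared 1342 of its 4633 exon bases with other genes. MYC, a known activator of ODC1 transcription, had 276 and 270 normalized CPM under vehicle, against 209 and 234 under CPI-455 (log2 fold change -0.30, standard error 0.11, FDR = 0.0378), and this small difference missed the threshold in 7 of the 16 other settings.

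**Figure D4:**
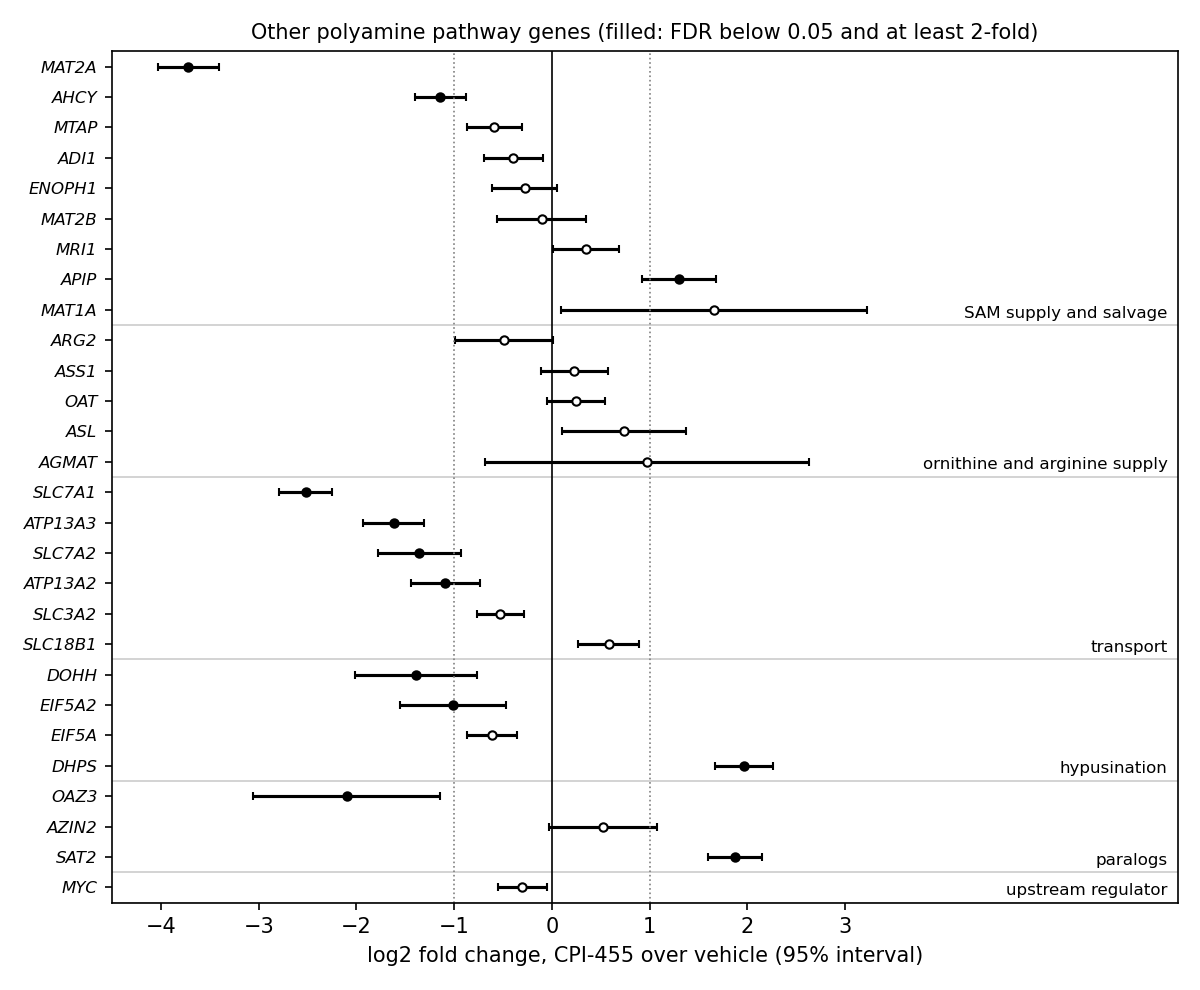
Log2 fold change, CPI-455 over vehicle, with 95% intervals for the 28 tested genes around the polyamine pathway, grouped by function; filled points were called and dotted lines mark 2-fold. MAT2A (-3.72) and SLC7A1 (-2.52) lie furthest to the left and DHPS (1.97) and SAT2 (1.88) furthest to the right among the called genes.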

How the data were processed

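RNA-seq of 4 LNCaP cultures was analysed, 2 per treatment, grouped by their labels. The authors trimmed reads with Trim Galore, aligned them to GRCh38 with STAR and deposited raw fragment counts per gene from featureCounts 1.5.0-p1 on Ensembl release 83. Per the file headers the counting ran with default settings for pairs, which ignore strand and skip fragments that align to more than 1 place or gene. How RNA was selected is not given in the sources used here.

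Symbols were matched for 56558 of 60675 genes. Counts were normalized with TMM (factors 1.08, 1.06, 0.936 and 0.936), filtered with filterByExpr at a minimum of 10 counts and tested with glmQLFit and glmQLFTest of edgeR 4.0.16 in R 4.3.3. The test was also run on simulated counts in which few genes changed and all varied alike. These data differ in that, so the simulation does not check the test for them. Alternatives were other scalings and filters, DESeq2 1.42.0, a likelihood-ratio test, glmTreat, a replicate block, length and GC trends (mgcv 1.9.3) and leaving out each library. Intervals and the floor of 3 counts cover counting error or the model only. Named genes are the 10 members, MYC, markers and, in each further list, up to 4 called genes with the largest change. EIF5A, genes not tested and overlapping genes were named after their values were seen. Members and lists were chosen with earlier results of these data known. The summed luminal marker list is not reported here.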

Additional observations from a re-analysis of the deposited data

How the results depend on the processing

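Each polyamine gene was recomputed under 16 settings. Of these values 144 kept direction and side of the FDR threshold, 10 fell below it and 6 changed sign. The sign changes were AMD1 at 0.033 with the trend on length, GC and exon share removed, SMS at -0.061 with library totals only, -0.026 without a filter and -0.025 to 0.22 with libraries left out (lowest without CPI-455 replicate 2), and PAOX at 0.014 with upper-quartile normalization and 0.086 without CPI-455 replicate 1. The number of members called lower (2) was 0 with upper-quartile normalization, glmTreat and the trend on length, GC and exon share, 1 with at least 10 counts in every library and with the length and GC trend removed with or without the replicate block, and 1 to 2 when libraries were left out. The number called higher stayed at 2. With glmTreat 5 other pathway genes were called lower in place of 9.

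The synthesis median (-0.55) was -0.37 with upper-quartile normalization, -0.74 with library totals, -0.70 without a filter and -0.40 with the exon share trend. In each setting given here the catabolism median is the value of PAOX and the regulator median that of OAZ2. The catabolism median (-0.16) was 0.014, -0.35, -0.31 and -0.40 in the same settings and -0.47 and -0.46 with the length and GC trend removed, without and with the replicate block. The regulator median (-0.45) was -0.054 and -0.055 in the last 2. Leaving out libraries gave -0.67 to -0.48 for synthesis and -0.45 to 0.086 for catabolism; the lone library of a group was assumed to vary like the other group. The causes were not tested. Upper-quartile normalization and library totals moved the median of all genes from -0.04 to 0.14 and -0.23, a shift shared by every member. With the replicate block 7167 genes were called against 7454, and 2 members higher and 2 lower. Replicate 1 minus 2 differences of the groups correlated at 0.040 across all tested genes and at 0.14 across the 6593 more abundant genes (average log2 CPM 5 or above), and with 2 pairs and no label that ties them the libraries were taken to share only a number. When libraries were left out, the log2 difference in the ratio of catabolic to synthesis enzymes was 2.16 to 2.53, against 2.35 with all. With 2 libraries per group such a move is always smaller than the replicate spread, so it does not test the within-library ratios. They were not recomputed with the length and GC trend removed, where single genes moved (AZIN1 to -0.54, OAZ1 to 1.57, SMOX to -1.20 and SAT1 to 2.38). PAOX had the fewest counts of the 10 members and the widest interval.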
